A study of Rattus norvegicus with 20 samples.

Results

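Cebpd, Cebpb, Klf9, Glul, Sgk1, Cdkn1a and Gadd45a are genes of skeletal muscle that respond to glucocorticoid hormone or to cell stress. They were followed in muscle of the rear leg of rats, with and without diabetes, through every probe set whose only gene symbol in the platform annotation was one of these 7. This gave 18 probe sets of 8799 on the array: 4 for Glul, 1 for Sgk1, 2 for Cebpb, 3 for Cebpd, 2 for Cdkn1a, 4 for Gadd45a and 2 for Klf9. All 18 were bright enough to be tested, among 6027 probe sets tested in all.

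The 20 arrays, 1 per sample, formed 4 groups of 5. These were muscle of untreated normal rats, untreated diabetic rats, diabetic rats given vanadyl sulfate (treated diabetic) and normal rats given vanadyl sulfate (treated normal). Vanadyl sulfate is a vanadium salt with insulin-like actions. The sources used here give neither the way diabetes was produced, nor strain, age, the muscle taken, or the dose and duration of vanadyl sulfate. The labels do not tie the replicates to separate animals, so the p-values measure the spread between these samples, which may be technical.

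Glucocorticoids bind the glucocorticoid receptor, encoded by Nr3c1, which enters the nucleus and regulates genes that carry its response elements. In skeletal muscle the hormone favours protein breakdown and the release of amino acids, chiefly glutamine and alanine, and insulin opposes these actions. Cebpb, Cebpd and Klf9 encode transcription factors that are induced early by the hormone. Glul and Sgk1 encode an enzyme and a kinase induced by it, and Cdkn1a and Gadd45a encode growth-arrest proteins that also respond to DNA damage and other stress.

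Arrays differed in ways that the groups do not describe. The 3'/5' signal ratio of the Gapdh control probe sets (log2), a measure of RNA integrity and labelling, stood apart in 3 arrays: normal replicates 1 (2.90) and 3 (2.91) and treated diabetic replicate 1 (3.94). It did not exceed 1.31 in the other 17. The beta-actin ratio was 2.31 and 2.52 in diabetic replicates 1 and 3, 0.93 to 1.97 in the other 3 diabetic arrays, and 0.58 to 0.63 in normal replicates 2, 4 and 5. Diabetic replicates 1 and 3 also had the highest Gapdh ratios of their group (0.90 and 1.11). Of 22 leukocyte markers, 15 were on the array, and their summed signal was 91629 and 87796 in diabetic replicates 1 and 3, 19895 to 30603 in the other 3 diabetic arrays, and 9965 to 19029 in the other groups. The summed signal of 8 of 10 adipocyte markers was 32487 to 54284 in diabetic muscle and 16324 to 29824 in normal muscle. That of 7 of 11 endothelial markers was 6319 to 9872 in diabetic, 3787 to 8634 in normal and 3946 to 5994 in treated diabetic muscle. The 14 of 17 skeletal muscle markers measured had a median rank between the 98.4th and the 99.6th percentile in every array. Their summed signal was 3604450 in normal replicate 3 and 890127 to 1343138 in the other normal arrays, and 838575 to 1295749 in the diabetic arrays. After treatment it lay between 1102926 and 2297567 in diabetic animals and between 689151 and 1079382 in normal ones, with no overlap.

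Between untreated diabetic and normal muscle, 1 of the 18 probe sets passed the test. It measured Cebpd and was 3.03-fold higher in diabetic muscle (adjusted p = 0.0148, limma with Benjamini-Hochberg adjustment). Over all tested probe sets, 110 of 6027 passed (1.83%), and 76 (1.26%) passed as higher. Of the 18, 16 had a higher mean in diabetic muscle, with a median difference of 0.93 on the log2(signal + 16) scale. Of all tested probe sets 44.9% were higher, and their median was -0.07. The 18 are repeated readings of 7 genes on the same arrays and not independent of each other. Here and in the other comparisons they are counted by probe set and not by gene. At an unadjusted p under 0.05, 8 of the 18 were higher (9.14% of all) and 1 was lower (7.57% of all). Of all tested probe sets, 16.7% were either. The 8 measured Glul, Cebpd, Cdkn1a, Gadd45a and Klf9, some through several probe sets. The 7 genes were chosen with earlier results of these data known. Counts of the 18, here and in the other comparisons, are therefore descriptions and not evidence of an excess over all probe sets. The 16 and the 8 both include Cebpd rc_AI045030_s_at, a dim probe set that met the filter through the diabetic arrays. The 16 also include Cdkn1a L41275cds_s_at, which was dim as well. Outside the diabetic group it exceeded the 40th percentile of the array in 4 of 15 arrays, where the filter needed 5. The part of these probe sets in the counts of any comparison is not taken as support. The 17 that missed the threshold had adjusted p from 0.0590 to 0.736. None of the 18 passed in the other 4 comparisons.

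**Figure D1:**
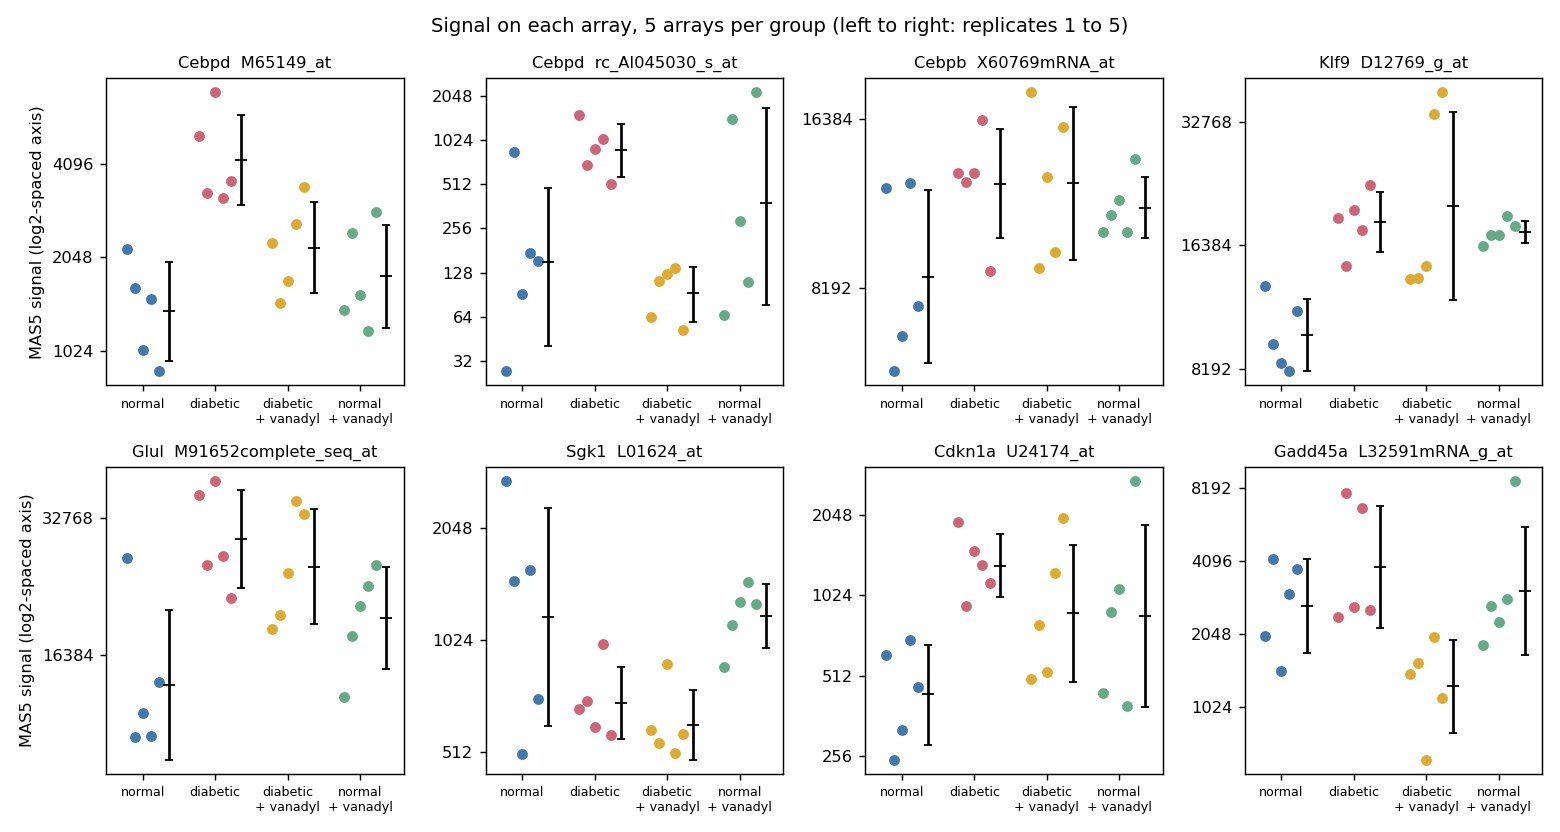
Signal per array (log axis, arbitrary units) in the 4 groups for 8 of the 18 probe sets. Each point is 1 array, with replicates 1 to 5 from left to right, and the bar is the mean ± SD of log2(signal + 16), n = 5. For Cebpd probe set M65149_at the 5 diabetic arrays, from 3165 to 6925, all lie above the 5 normal arrays, from 885 to 2178.

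Cebpd encodes C/EBP delta, a leucine-zipper transcription factor of the acute-phase and glucocorticoid responses. On probe set M65149_at its signal was 2178, 1639, 1033, 1505 and 885 in normal replicates 1 to 5, and 5023, 3286, 6925, 3165 and 3603 in diabetic replicates 1 to 5. Every diabetic array was above every normal array, and replicates 1 and 3 were the highest of the diabetic group. The mean log2(signal + 16) was 10.44 ± 0.52 (SD, n = 5) in normal and 12.04 ± 0.48 (SD, n = 5) in diabetic muscle, a rise of 1.60 ± 0.32 (SE).

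In treated diabetic muscle the same Cebpd probe set read 2274, 1467, 1716, 2624 and 3444, and in treated normal muscle it read 1391, 2452, 1548, 1188 and 2872. Both treated groups overlapped the normal arrays, and only treated diabetic replicate 5 reached into the diabetic range. The order of the group means was diabetic, treated diabetic (11.12 ± 0.48, SD, n = 5), treated normal (10.81 ± 0.54, SD, n = 5) and normal. Treated diabetic was 0.93 ± 0.32 (SE) below diabetic on the log2 scale (adjusted p = 0.186), and diabetic minus normal was the only comparison of this probe set that passed. Each neighbouring pair in that order overlapped in its ranges.

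Diabetic replicates 1 and 3, which had the highest Cebpd signals, also had the highest summed leukocyte markers, and 6 of the 13 leukocyte markers tested were themselves called between diabetic and normal muscle. For adipocyte markers 3 of 7 were called, and for endothelial markers 1 of 5, where 1.83% of all tested probe sets were called. The same 2 arrays had the highest 3'/5' ratios of the diabetic group. The part of RNA quality or of other cell types in the Cebpd result was not tested. Leaving these 2 arrays out removes high Cebpd, leukocyte sums and ratios together, and no fit held a term for cell type. Without these 2 arrays, a choice made after seeing the data, the Cebpd difference was 1.27 and did not pass (adjusted p = 0.263). In that fit calls for diabetic minus normal fell from 110 to 3 over all tested probe sets. The Cebpd difference also did not pass without diabetic replicate 1 alone (1.53, adjusted p = 0.0585) or diabetic replicate 3 alone (1.42, adjusted p = 0.0594). Nor did it pass without normal replicate 5 (1.44, adjusted p = 0.0557). Fitted with 3'/5' covariates it was 1.42 (adjusted p = 0.0965) and did not pass either. Calls over all tested probe sets fell in each of these fits, so a lost call in them is not particular to Cebpd. In whole muscle, more cells of a type and more RNA per cell cannot be told apart.

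Cebpd had other probe sets on the array. Probe set rc_AI045030_s_at read 27, 847, 92, 174 and 152 in normal muscle, 1517, 692, 883, 1040 and 513 in diabetic muscle, 64, 112, 125, 138 and 52 in treated diabetic muscle, and 65, 1433, 288, 110 and 2162 in treated normal muscle. All 5 treated diabetic arrays were below all 5 diabetic arrays, and normal replicate 2 and treated normal replicates 2 and 5 stood high in their groups. This probe set was dim: 4 of 5 normal and 5 of 5 treated diabetic values lay under the 40th percentile of their own array. Only 3 of the 15 arrays outside the diabetic group exceeded it, so the probe set met the filter through the group in which it was high.

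In the fit it did not pass for diabetic minus normal (adjusted p = 0.122) or for treated diabetic minus diabetic (adjusted p = 0.0965). No size is given for these differences, since the lower group lay mostly or wholly under that level. The third probe set, rc_AA946292_at, differed by -0.27 ± 0.26 between diabetic and normal muscle (adjusted p = 0.621), with ranges of 778 to 1347 and 802 to 2217. The call for Cebpd therefore rests on 1 of its 3 probe sets.

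Cebpb encodes C/EBP beta, the partner of C/EBP delta in the same family and an inducer of gluconeogenic and inflammatory genes. Its brighter probe set, X60769mRNA_at, read 12320, 5823, 6726, 12590 and 7598 in normal muscle and 13088, 12648, 13125, 16270 and 8770 in diabetic muscle. The ranges overlapped, since normal replicates 1 and 4 lay above diabetic replicate 5. The difference was 0.55 ± 0.27 (SE; 95% interval -0.01 to 1.10, adjusted p = 0.305). Treated diabetic arrays read 8882 to 18241 and treated normal arrays 10282 to 13909, and the mean of treated diabetic muscle was 0.00 ± 0.27 (SE) from that of diabetic muscle on the log2 scale (95% interval -0.55 to 0.56).

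The dimmer Cebpb probe set, S77528cds_s_at, read 52, 1248, 140, 2058 and 1481 in normal muscle and 1279, 2102, 1034, 1691 and 954 in diabetic muscle. The low normal values, 52 and 140, came from replicates 1 and 3, the normal arrays with high Gapdh ratios. Its difference was 1.37 ± 0.90 (SE, adjusted p = 0.457) with all arrays. Leaving out the 3 arrays with a high Gapdh ratio gave -0.21. In treated diabetic muscle this probe set read 138, 1013, 182, 284 and 53, and 3 of these 5 values lay under the 40th percentile of their array. The difference from diabetic muscle did not pass (adjusted p = 0.187), and no size is given for it for that reason.

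Klf9 encodes a Krüppel-like zinc-finger repressor that is a direct target of the glucocorticoid receptor in many cells. Its promoter is shown because both Klf9 probe sets separated diabetic from normal muscle in every array. The 250 bases before the RefSeq start of rat Klf9, chr1:230126396-230126645 on the plus strand of GRCr8, read 5' to 3':
Klf9: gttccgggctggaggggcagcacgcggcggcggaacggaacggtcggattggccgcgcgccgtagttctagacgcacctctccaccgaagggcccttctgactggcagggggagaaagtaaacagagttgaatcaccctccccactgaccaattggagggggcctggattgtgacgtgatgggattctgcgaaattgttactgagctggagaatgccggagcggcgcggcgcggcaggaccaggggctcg
No base is in capitals, since none of the 6 motifs searched was found in it on either strand.

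The motifs searched, on both strands, began with the full glucocorticoid response element (an inverted repeat with any 3 bases between its arms) and a single arm of it, spelled TGTTCT, which any full element also holds. The others were the cyclic AMP response element, spelled TGACGTCA, the site of C/EBP proteins, spelled TTGCNNAA, the GC box, spelled GGGCGG, which Sp/KLF factors bind, and the TATA box, spelled TATAAA. Among 33465 rat promoter windows of this length they occurred, in this order, in 0.012%, 17.5%, 1.59%, 9.22%, 30.5% and 12.9%. RefSeq sequences matched 6 of the 7 genes, with 9 start sites in all; Cebpd was the other. The first 4 motifs were in none of the 9 windows, GC boxes were in windows of Glul, Sgk1, Cebpb and Gadd45a, and TATA boxes were in windows of Sgk1 and Cebpb. A window without a match says only that these letters are not in it.

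On probe set D12769_g_at, Klf9 read 13069, 9415, 8490, 8094 and 11324 in normal muscle and 19161, 14566, 20024, 17833 and 22991 in diabetic muscle. It read 13563, 13651, 14561, 34186 and 38685 in treated diabetic muscle and 16360, 17385, 17407, 19282 and 18270 in treated normal muscle. All 5 arrays of each of these 3 groups lay above all 5 normal arrays, and the treated normal arrays were the tightest, with an SD of 0.09 in log2. Treated diabetic replicates 4 and 5 stood above every other array.

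The differences from normal muscle on this probe set were 0.92 ± 0.28 (SE) in diabetic muscle (adjusted p = 0.103), 0.84 ± 0.28 in treated normal muscle (adjusted p = 0.406) and 1.04 ± 0.28 in treated diabetic muscle (adjusted p = 0.270). None passed with all arrays. These 3 comparisons share the same 5 normal arrays. The order of the means was treated diabetic (14.32 ± 0.76, SD, n = 5), diabetic (14.19 ± 0.24), treated normal (14.11 ± 0.09) and normal (13.28 ± 0.29); the first 3 overlapped. Without the 3 arrays of high Gapdh ratio, treated diabetic minus normal passed for this probe set (1.25, adjusted p = 0.0401). In that fit calls for this comparison rose from 0 to 359 over all tested probe sets.

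Probe set D12769_at read 4043 to 6375 in normal, 8594 to 13490 in diabetic and 6367 to 15117 in treated normal muscle. Treated diabetic muscle was widest here, at 3373, 7057, 6298, 21262 and 8021. Diabetic and normal arrays again did not overlap, while the lowest treated normal array, at 6367, lay just under the highest normal one. The difference for diabetic minus normal was 0.99 ± 0.36 (SE, adjusted p = 0.155).

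Across the 18 probe sets, 4 had all 5 diabetic arrays above all 5 normal arrays: Cebpd M65149_at, Cdkn1a U24174_at and both Klf9 probe sets. None had all diabetic arrays below. Among all tested probe sets 3.33% were separated upwards in this way and 1.76% downwards.

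**Figure D2:**
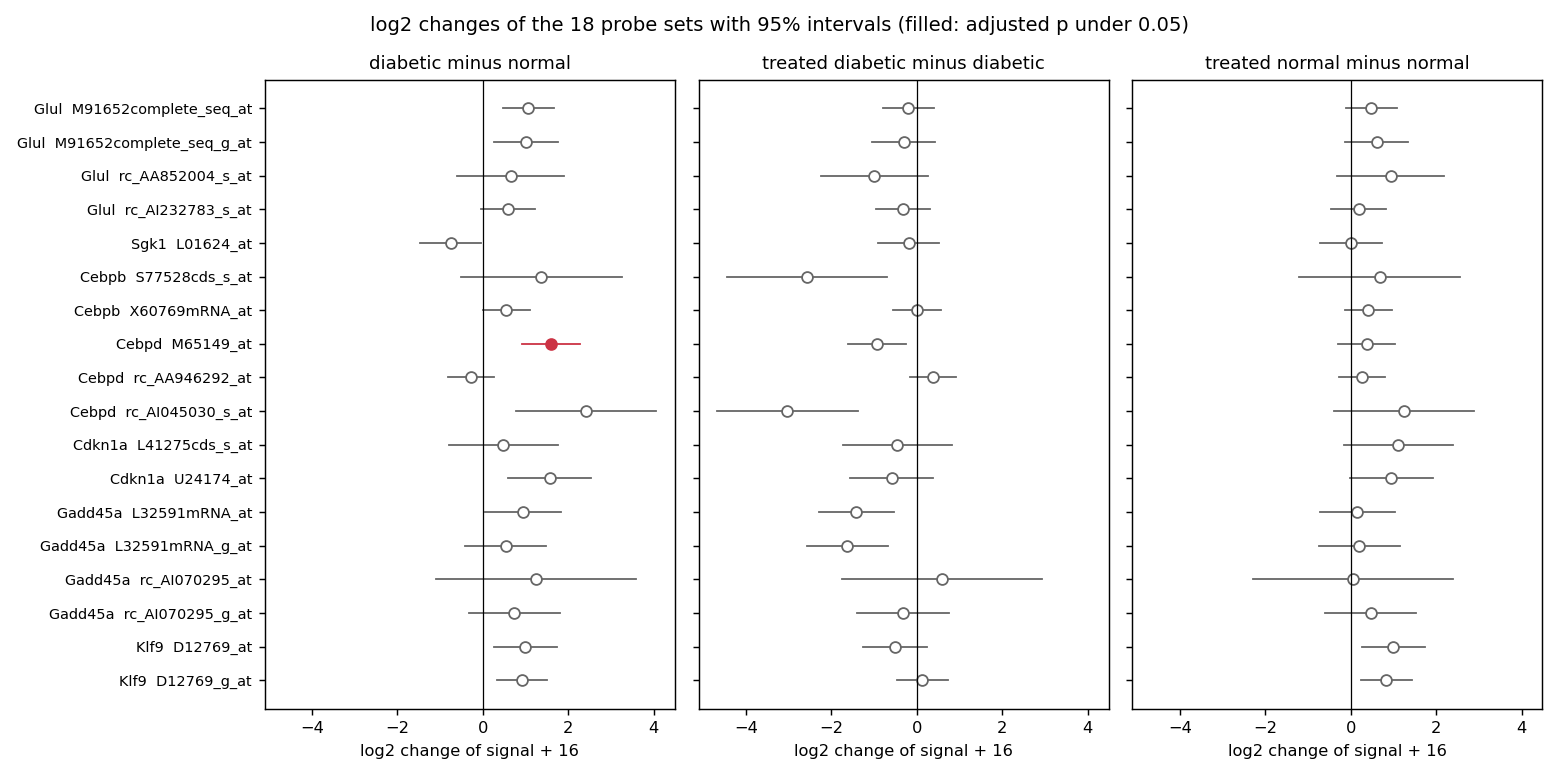
Difference in log2(signal + 16) with its 95% interval for each of the 18 probe sets in 3 comparisons, from the fit to all 20 arrays; filled points passed an adjusted p of 0.05. The Cebpd probe set M65149_at, at 1.60 in diabetic minus normal, is the only filled point.

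Glul encodes glutamine synthetase, which joins ammonia to glutamate and makes the glutamine that muscle exports. Of its RefSeq start sites, the second, chr13:68575816-68576065 on the plus strand of GRCr8, is shown with its GC box, the only motif found, in capitals:
Glul: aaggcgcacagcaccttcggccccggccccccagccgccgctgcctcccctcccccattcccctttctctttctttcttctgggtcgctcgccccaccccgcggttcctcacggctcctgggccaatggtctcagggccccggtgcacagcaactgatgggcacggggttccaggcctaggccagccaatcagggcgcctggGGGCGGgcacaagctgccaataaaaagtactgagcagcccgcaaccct
The box lies 48 to 43 bases before the start.

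Glul probe set M91652complete_seq_at read 26786, 10856, 12239, 10925 and 14350 in normal muscle and 36711, 25781, 39408, 26996 and 21895 in diabetic muscle. Normal replicate 1, one of the arrays with a high Gapdh ratio, was the only normal array inside the diabetic range. The difference was 1.06 ± 0.29 (SE), 2.08-fold, and missed the threshold (adjusted p = 0.0590). Without the 3 arrays of high Gapdh ratio it was 1.30 and passed (adjusted p = 0.0145). In that fit calls for diabetic minus normal rose from 110 to 464 over all tested probe sets. The Glul difference also passed without normal replicate 1 alone (1.29, adjusted p = 0.0156). At the same 1.06, it passed without treated diabetic replicate 5 (adjusted p = 0.0496).

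Treated diabetic muscle read 18662, 20060, 24843, 35561 and 33363 on this probe set, and treated normal muscle read 13313, 18045, 20974, 23174 and 25809. The order of the means was diabetic (14.85 ± 0.36, SD, n = 5), treated diabetic (14.65 ± 0.42), treated normal (14.27 ± 0.37) and normal (13.79 ± 0.54), and each neighbouring pair overlapped. Treated diabetic minus diabetic was -0.20 ± 0.29 (SE; 95% interval -0.79 to 0.40).

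The other 3 Glul probe sets also had higher means in diabetic than in normal muscle, by 1.01 ± 0.35 (SE, M91652complete_seq_g_at, adjusted p = 0.147), 0.58 ± 0.31 (rc_AI232783_s_at, adjusted p = 0.347) and 0.66 ± 0.60 (rc_AA852004_s_at, adjusted p = 0.602). The first of these passed without the 3 arrays of high Gapdh ratio (1.39, adjusted p = 0.0255). Both M91652 probe sets then also passed for treated diabetic minus normal (1.21, adjusted p = 0.0319, and 1.31, adjusted p = 0.0451). These passes came from the same fit, in which calls over all tested probe sets rose in both comparisons, to 464 and 359. The 4 probe sets of 1 gene are repeated readings and not independent samples. Signals of rc_AI232783_s_at were 33721 to 59615 in normal and 47435 to 84845 in diabetic muscle, and normal replicate 4 was the highest of the normal arrays.

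Sgk1 encodes serum- and glucocorticoid-regulated kinase, which acts downstream of phosphoinositide 3-kinase on ion channels and on FOXO factors. Its RefSeq start site numbered 3, chr1:24804832-24805081 on the minus strand of GRCr8, carried the most matches of the 9 windows: 4 GC boxes and a TATA box 33 to 28 bases before the start, in capitals:
Sgk1: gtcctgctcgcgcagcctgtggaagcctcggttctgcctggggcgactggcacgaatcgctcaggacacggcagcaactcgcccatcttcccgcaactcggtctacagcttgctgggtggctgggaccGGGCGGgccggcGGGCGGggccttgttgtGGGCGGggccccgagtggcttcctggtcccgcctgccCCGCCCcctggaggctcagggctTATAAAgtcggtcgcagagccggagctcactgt

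The only Sgk1 probe set, L01624_at, read 2740, 1473, 506, 1580 and 712 in normal muscle and 668, 704, 600, 1003 and 568 in diabetic muscle. Normal arrays spread 5.42-fold, with replicate 5 inside and replicate 3 below the diabetic range. Treated diabetic muscle read 587, 544, 882, 510 and 575, and treated normal muscle read 868, 1124, 1301, 1466 and 1284. These treated groups overlapped only through treated diabetic replicate 3, at 882, and treated normal replicate 1, at 868.

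Sgk1 thus had a lower mean in diabetic than in normal muscle, opposite in sign to most of the other probe sets, by -0.76 ± 0.34 (SE, unadjusted p = 0.0393, adjusted p = 0.268). Treated diabetic minus normal was -0.94 ± 0.34 (adjusted p = 0.331) and treated normal minus normal was 0.01 ± 0.34 (95% interval -0.71 to 0.72). The order of the means was treated normal (10.24 ± 0.28, SD, n = 5), normal (10.23 ± 0.96), diabetic (9.47 ± 0.32) and treated diabetic (9.28 ± 0.30). No step in that order passed.

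Cdkn1a encodes p21, an inhibitor of cyclin-dependent kinases and a target of p53 that is induced in wasting muscle. Its RefSeq promoter, chr20:7150682-7150931 on the plus strand of GRCr8, is shown because its brighter probe set separated diabetic from normal muscle; it held none of the motifs searched:
Cdkn1a: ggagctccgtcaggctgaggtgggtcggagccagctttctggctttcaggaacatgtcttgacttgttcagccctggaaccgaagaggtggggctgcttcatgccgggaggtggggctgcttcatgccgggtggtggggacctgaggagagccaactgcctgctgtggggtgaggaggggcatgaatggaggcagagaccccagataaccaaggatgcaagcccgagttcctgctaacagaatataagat

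That probe set, U24174_at, read 609, 247, 321, 694 and 462 in normal muscle and 1918, 934, 1494, 1328 and 1135 in diabetic muscle. The groups did not overlap, and diabetic replicates 1 and 3 were again the highest of their group. The difference was 1.57 ± 0.47 (SE), 2.96-fold, with an adjusted p of 0.0887, over the threshold. It passed when only the normal and diabetic arrays were fitted (adjusted p = 0.0424), and without treated normal replicate 5 (adjusted p = 0.0462). Without diabetic replicates 1 and 3 it was 1.33 (adjusted p = 0.589).

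Treated diabetic muscle read 498, 792, 526, 1236 and 1988 for Cdkn1a, and treated normal muscle read 440, 884, 1078, 395 and 2741. Both groups spread from within the normal range to above the highest diabetic array. The means were 10.39 ± 0.39 (SD, n = 5) in diabetic, 9.80 ± 0.83 in treated diabetic, 9.77 ± 1.11 in treated normal and 8.82 ± 0.60 in normal muscle. The second probe set, L41275cds_s_at, was dim, with 14 of its 20 values under the 40th percentile of their array. Outside the diabetic group 4 of 15 arrays exceeded that level, fewer than the 5 needed for testing. Diabetic minus normal was 0.47 ± 0.61 (SE, adjusted p = 0.736) on it.

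Gadd45a encodes a small nuclear protein that binds p21 and PCNA and takes part in stress signalling through MAP kinases; it is induced in denervated and wasting muscle. On probe set L32591mRNA_g_at it read 2008, 4194, 1444, 3014 and 3799 in normal muscle and 2402, 7847, 2655, 6826 and 2576 in diabetic muscle. Diabetic replicates 2 and 4 stood well above the other 3, which lay within the normal range. The difference was 0.53 ± 0.45 (SE, adjusted p = 0.571), and on L32591mRNA_at it was 0.94 ± 0.42 (adjusted p = 0.263).

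Treated diabetic muscle read 1402, 1558, 621, 1991 and 1114 on L32591mRNA_g_at, below all 5 diabetic arrays, and treated normal muscle read 1841, 2685, 2291, 2859 and 8778. Treated diabetic minus diabetic was -1.63 ± 0.45 (SE, unadjusted p = 0.00179, adjusted p = 0.115), and on L32591mRNA_at it was -1.41 ± 0.42 (adjusted p = 0.122). The order of the means was diabetic (11.93 ± 0.84, SD, n = 5), treated normal (11.60 ± 0.87), normal (11.40 ± 0.64) and treated diabetic (10.30 ± 0.63). None of the comparisons of this probe set passed, and the ranges overlapped between each pair of neighbours in that order.

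The remaining Gadd45a probe sets, rc_AI070295_at and rc_AI070295_g_at, had larger standard errors. Treated diabetic minus diabetic was 0.59 ± 1.12 (SE; 95% interval -1.75 to 2.93) on the first and -0.32 ± 0.51 (95% interval -1.39 to 0.75) on the second, and their difference from the L32591 probe sets was not tested. Diabetic minus normal was 1.24 ± 1.12 and 0.74 ± 0.51. The first spread from 5 to 2210 among treated normal arrays, so its intervals were wide.

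In treated against untreated diabetic muscle, 0 of the 18 probe sets passed limma's test, where 30 of 6027 did (0.498%), 0.0498% as higher and 0.448% as lower. At an unadjusted p under 0.05, 5 of the 18 were lower and 0 higher, where 7.57% of all tested probe sets were lower and 8.78% higher (16.3% in all). The 5 were Cebpd M65149_at and rc_AI045030_s_at, Cebpb S77528cds_s_at and both L32591 probe sets of Gadd45a. Of the 18, 14 had a lower mean, and 4 a higher one, where 56.1% of all tested probe sets were higher. The median was -0.39 for the 18 and 0.08 for all tested probe sets. All 5 treated arrays were below all 5 untreated ones for 2 of the 18, Cebpd rc_AI045030_s_at and Gadd45a L32591mRNA_g_at, as for 2.07% of all tested probe sets. None was separated upwards, as 2.37% of all were. Fitting the diabetic and treated diabetic arrays alone called 1, Cebpd rc_AI045030_s_at (adjusted p = 0.00480). All 5 treated values of that probe set (52 to 138) lay under the 40th percentile of their arrays. The probe set met the filter through the diabetic arrays, so neither this call nor its part in the counts above is taken as support. For Cebpb S77528cds_s_at, 3 of the 5 treated values lay under that level.

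In treated against untreated normal muscle, 0 of the 18 passed, where 4 of 6027 did (0.0664%), and 2 were higher at an unadjusted p under 0.05, both of Klf9, where 7.33% of all were. None was lower at that level, where 1.89% of all were (9.23% in either direction). All 18 means were higher in treated muscle, where 66.7% of all tested probe sets were. They include Cdkn1a L41275cds_s_at, which read 1092 and 2162 in treated normal replicates 3 and 5 and 92 to 288 in the others. Neither this dim probe set nor Cebpd rc_AI045030_s_at is taken as support. Under quantile normalization Sgk1 and Gadd45a rc_AI070295_at turned to -0.11 each. Without treated normal replicate 5 alone, Glul rc_AI232783_s_at was -0.012 and Sgk1 -0.019. Gadd45a was then -0.21 (L32591mRNA_at), -0.17 (L32591mRNA_g_at) and -0.58 (rc_AI070295_at). That array was the highest of its group on 14 of the 18 probe sets. The median was 0.48 for the 18 and 0.18 for all tested probe sets. Klf9 D12769_g_at was the only one of the 18 whose treated arrays all lay above the untreated arrays (1.31% of all tested probe sets). None was separated downwards (0.531% of all).

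Treated diabetic muscle against normal muscle gave 0 calls among the 18 and 0 of 6027 in all (0%) by limma. At an unadjusted p under 0.05, 3 of the 18 were higher (6.29% of all) and 2 lower (6.49% of all), where 12.8% of all were either. Means were higher for 12 of the 18, with a median of 0.34, where 53.8% of all tested probe sets were higher and their median was 0.05. The higher ones were Glul M91652complete_seq_at (0.86 ± 0.29, SE), Cdkn1a U24174_at (0.98 ± 0.47) and Klf9 D12769_g_at (1.04 ± 0.28). The lower ones were Sgk1 (-0.94 ± 0.34) and Gadd45a L32591mRNA_g_at (-1.10 ± 0.45). The Klf9 probe set was the only one of the 18 whose arrays did not overlap, and 0.398% of all tested probe sets did so upwards and 0.282% downwards.

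The interaction, the treatment difference in diabetic muscle minus that in normal muscle, passed for 0 of the 18 by limma and for 10 of 6027 in all (0.166%). Its sign was positive for 2 of the 18 and negative for 16, where 42.2% of all tested probe sets were positive. The median was -1.11 for the 18 and -0.13 for all. At an unadjusted p under 0.05, 8 of the 18 were negative, where 8.20% of all tested probe sets were, and 0 were positive, where 5.08% of all were (13.3% in either direction). The lowest adjusted p was 0.121, for the dim Cebpd probe set rc_AI045030_s_at. This probe set is among the 8, met the filter through the diabetic arrays and is not taken as support. Cebpd M65149_at was at -1.30 ± 0.46 (adjusted p = 0.219), Klf9 D12769_at at -1.50 ± 0.50 (adjusted p = 0.192) and Gadd45a L32591mRNA_g_at at -1.83 ± 0.64 (adjusted p = 0.211). All 5 comparisons are built from the same 4 groups and are not independent of each other.

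**Figure D3:**
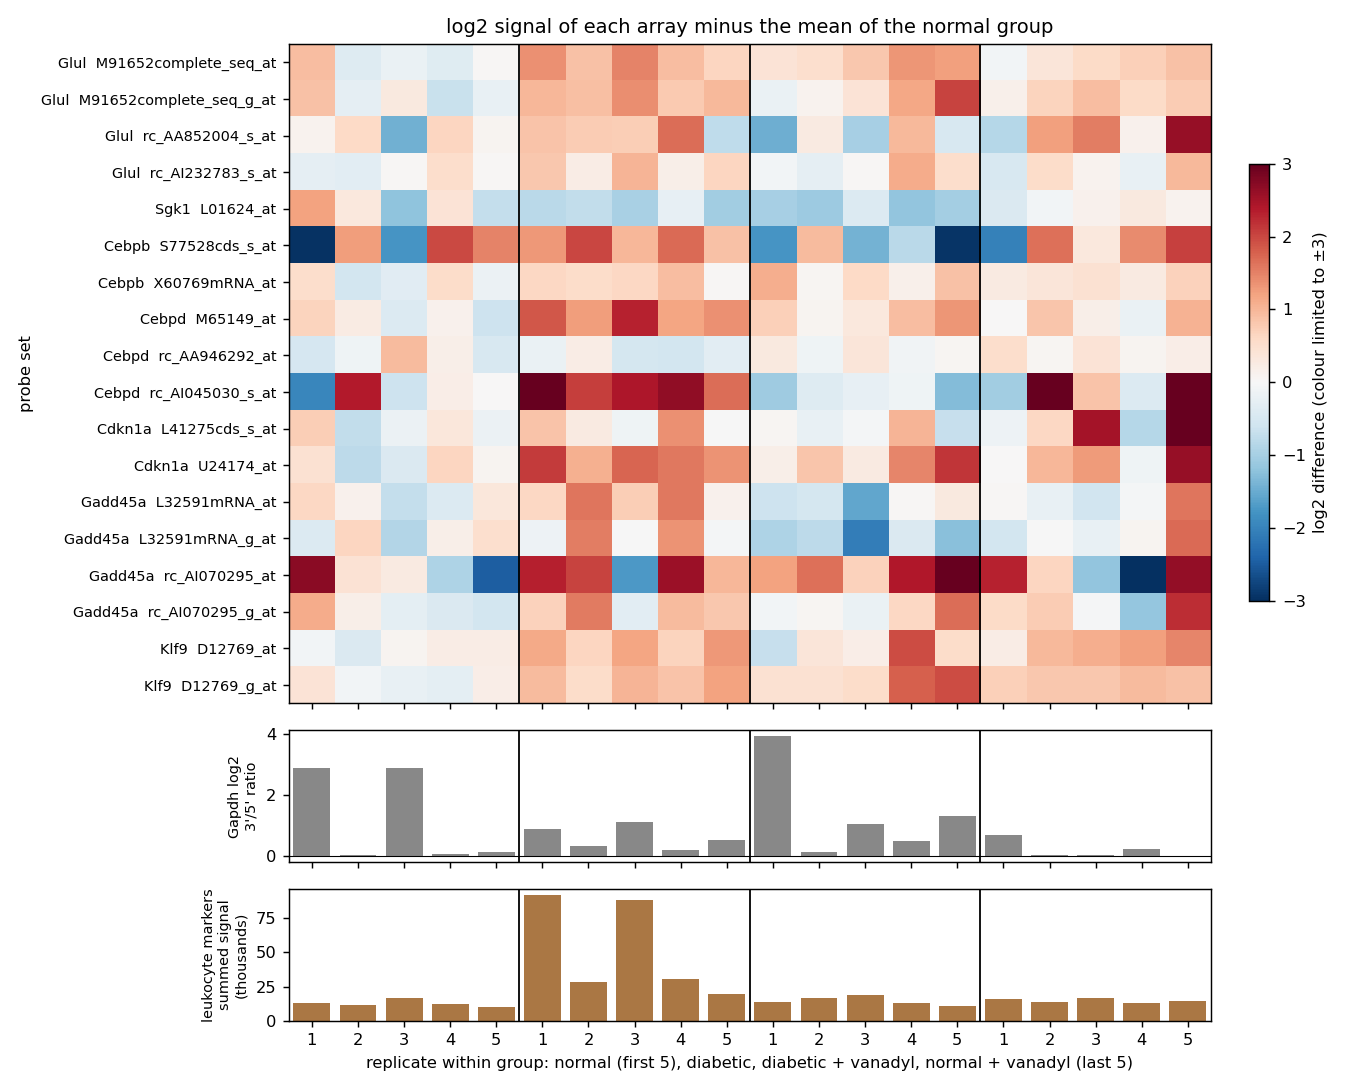
Upper panel, log2(signal + 16) of each of the 18 probe sets in each of the 20 arrays relative to the average of the 5 normal arrays, with colours limited to ±3; lower panels, the log2 Gapdh 3'/5' ratio and the summed leukocyte marker signal of the same arrays. The leukocyte sum is 91629 and 87796 in diabetic replicates 1 and 3 and at most 30603 in the other 18 arrays, and the Gapdh ratio is above 2 in normal replicates 1 and 3 and treated diabetic replicate 1.

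The genes also varied from array to array within groups. Treated normal replicate 5 was the highest of its group on 14 of the 18 probe sets, all but Sgk1 and 1 each of Glul, Cebpd and Klf9. Its log2 Gapdh ratio, -0.004, was the lowest of the 20 arrays, and its leukocyte sum, 14617, lay within the range of the other treated normal arrays. Its summed signal of 4 blood cell markers was 5332, where the other 19 arrays lay between 27087 and 88381, and its skeletal muscle sum, 689151, was the lowest of the 20. Over the 20 arrays, with the brightest probe set standing for each gene, the highest correlation between genes of the set was 0.78 for Glul and Cdkn1a (0.74 with group means removed), followed by 0.75 for Cebpd and Cdkn1a (0.64). The lowest was -0.33, for Sgk1 and Klf9, which was 0.00 with group means removed. These correlations are descriptions: genes of 1 array share its RNA and its scaling.

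Other genes were set beside each gene by the Pearson correlation of log2(signal + 16) over the 20 arrays. For Cebpd the closest were Arl11 (0.89), Nfkbia (0.86) and F2r (0.85), at 0.73, 0.59 and 0.70 with group means removed. For Klf9 they were Mycbp2 (0.87), Ptp4a1 (0.85) and Il15 (0.85), and for Gadd45a they were Cbr1 (0.85), Cd36 (0.85) and St13 (0.84). Nol3 was closest to both Cdkn1a (0.83) and Glul (0.79). Sgk1 was closest to Aktip (0.79) and Cebpb to Ptpn1 (0.75).

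The glucocorticoid receptor gene, Nr3c1, differed by 0.22 ± 0.39 (SE) between diabetic and normal muscle (adjusted p = 0.821). In a list of 43 genes of the glucocorticoid response, which includes Nr3c1 and none of the 7 genes, 23 were tested, and 1 rose in diabetic muscle, none fell and 22 did not pass. Nfkbia, the inhibitor of NF-kappa-B that glucocorticoids induce, rose by 1.74 ± 0.27 (SE), 3.34-fold (adjusted p = 0.00257). The median of the list was -0.03, where all tested genes had -0.04. Means were higher for 11 and lower for 12 of the 23, with 4 above and 3 below at an unadjusted p under 0.05. Over all tested probe sets 9.14% were higher and 7.57% lower at that level, and 1.83% passed after adjustment. These shares also apply to the lists that follow. Sult1a1, a sulfotransferase, was at 1.73 ± 0.45 (adjusted p = 0.0518) and Cited2, a transcriptional co-regulator, at 1.04 ± 0.32 (adjusted p = 0.0996).

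Pdk4, the kinase that shuts pyruvate dehydrogenase and is induced by fasting and glucocorticoids, was at 1.16 ± 1.16 (SE) in diabetic minus normal muscle (adjusted p = 0.640) and -3.38 ± 1.16 in treated diabetic minus diabetic (adjusted p = 0.178). The transaminases Got1 and Gpt, members of both the glucocorticoid and the glutamine list, which pass amino groups between glutamate and other acids, were at -0.86 ± 0.28 (adjusted p = 0.117) and -1.62 ± 0.56 (adjusted p = 0.141) in diabetic minus normal. In the glutamine and glutamate list 0 of 15 genes passed by limma, with 1 above and 4 below at an unadjusted level of 0.05, and the median was 0.00.

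Of the muscle atrophy list, 13 of 28 genes were tested and 0 passed in diabetic against normal muscle by limma; 9 had higher and 4 lower means, with a median of 0.29. At an unadjusted p under 0.05, 3 lay above and 1 below. Ctsl, a lysosomal protease of wasting muscle, was at 1.54 ± 0.44 (SE, adjusted p = 0.0787) and Eif4ebp1, a repressor of translation, at 1.23 ± 0.35 (adjusted p = 0.0804). Myostatin, encoded by Mstn and an inhibitor of muscle growth, was at -1.53 ± 0.53 (adjusted p = 0.138).

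Among 17 genes of the p53, growth-arrest and DNA-damage list, 1 fell in diabetic muscle, none rose and 16 did not pass, with a median of -0.11. The gene that fell was Ccnd1, cyclin D1, which drives entry into S phase (-1.25 ± 0.31, SE, adjusted p = 0.0456). Btg1, an antiproliferative factor, was at 0.93 ± 0.32 (adjusted p = 0.142) and Mdm2, the ubiquitin ligase of p53, at -0.49 ± 0.37 (adjusted p = 0.512). Of 11 relatives of the C/EBP, KLF and SGK genes, 0 passed by limma, with 2 above and 2 below at the unadjusted level. Means were higher for 3 and lower for 8 of these relatives, with a median of -0.23. Klf6 and Klf4, zinc-finger factors of the same family as Klf9, were at 1.78 ± 0.54 (adjusted p = 0.0964) and 1.67 ± 0.50 (adjusted p = 0.0910). Hlf was at -1.07 ± 0.46 (adjusted p = 0.2335) and Sgk2 at -0.65 ± 0.30 (adjusted p = 0.276). No gene of these 5 lists passed in the other 4 comparisons. Without diabetic replicates 1 and 3, Nfkbia was at 1.40 (adjusted p = 0.0996) and Ccnd1 at -1.09 (adjusted p = 0.490), and neither passed. In that fit calls for diabetic minus normal fell from 110 to 3 over all tested probe sets.

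**Figure D4:**
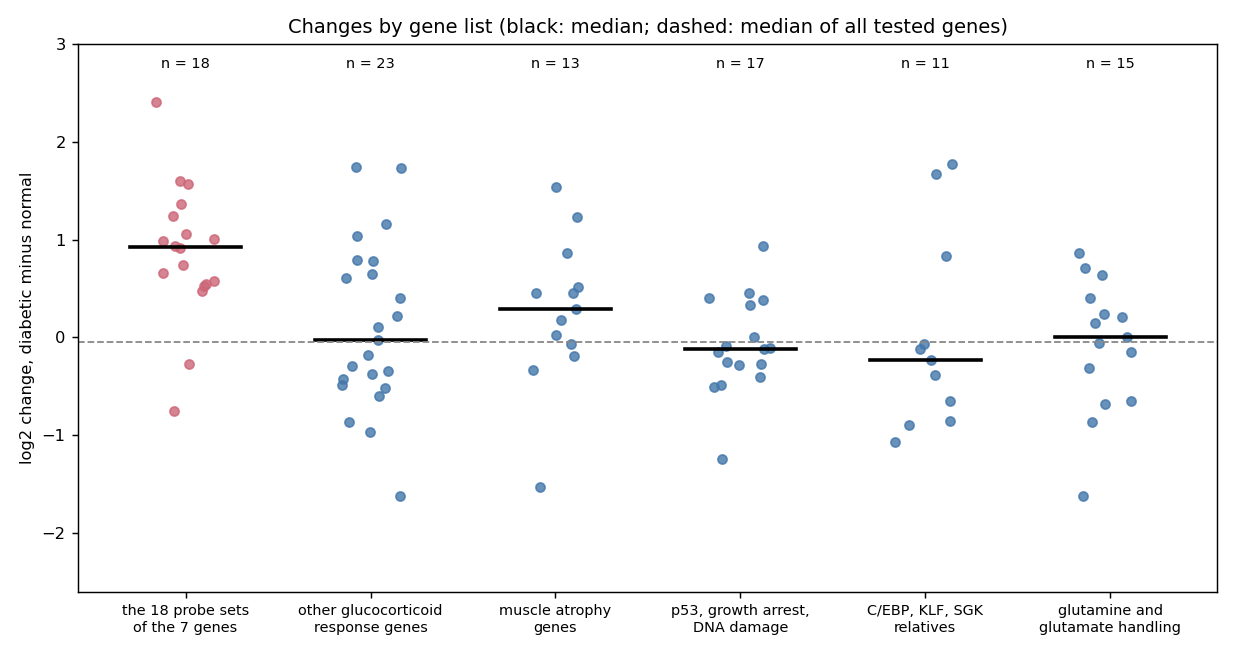
Difference in log2(signal + 16) between diabetic and normal muscle for each gene, by list, 1 probe set per gene except for the 18 shown one by one; black bars are list medians and the dashed line is the median of all tested genes. The median of the 18, which counts every probe set of a gene, is 0.93. Those of the 5 lists, which count each gene once, lie between -0.23 and 0.29, so they are not on the same basis.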

How the data were processed

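Biotin-labelled cRNA made from poly(A) RNA of rear-leg muscle was hybridised to 1-colour arrays. The authors deposited a linear intensity for each probe set on each array, calculated with MAS5 (per the submitters' processing notes, which name no version). The mean signal after trimming lay between 2503.4 and 2506.46, so the scaling was kept. The table has no detection calls; the number of arrays and their spread limit the precision.

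Of 8799 probe sets, 59 controls were left out. A probe set was tested when it exceeded its array's 40th percentile in at least 5 of 20 arrays. Values were log2(signal + 16); a fold change on this scale understates that of dim probe sets. Annotation gave 7018 probe sets 1 symbol, 308 several, and did not list 1473. Where a gene had several probe sets, each of the 7 genes' probe sets is given, and elsewhere the brightest stood for the gene.

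Group means of 4 groups were fitted with limma 3.58.1 (R 4.3.3), two-sided, with Benjamini-Hochberg adjustment over 6027 probe sets and a threshold of 0.05. The fit was tested on simulated data. Alternatives were the pseudocount, the filter, quantile normalization, a replicate block, fewer groups, 3'/5' covariates and left-out arrays. The genes, the lists and the rule for other named genes (list genes that passed, up to 4 more with the smallest p, and the 3 genes of highest correlation) were chosen with earlier results of these data known. Promoters are from RefSeq, GRCr8.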

Additional observations from a re-analysis of the deposited data

Results flagged for a closer look

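In 4 of 72 groups of 5 arrays (18 probe sets in 4 groups), 1 array lay far from the other 4 by Dixon's criterion; chance flags about 1 in 20 groups. Gadd45a stood out in treated normal replicate 5 on both L32591 probe sets, at a signal of 6485.7 on L32591mRNA_at, where the other 4 arrays lay between 1415.7 and 2161.8, and 8777.5 on L32591mRNA_g_at, where they lay between 1840.8 and 2859.4. Sgk1 in treated diabetic replicate 3 was 882.5, where the other 4 arrays lay between 509.9 and 586.7. Glul rc_AA852004_s_at in normal replicate 3, an array with a high Gapdh ratio, was 1276.9, where the other 4 lay between 3677.4 and 5463.8.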

How the results depend on the processing

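Of the values of the 18 probe sets under all alternatives, 2524 kept their direction and their side of the threshold. Another 5 lost a call, 10 gained one and 53 changed sign, none of them a called value, and the causes were not tested. Many could not change direction. The difference stays the same with no filter, a replicate block, fewer groups, or an array left out from outside the comparison. Most values also began uncalled, so the 2524 are no measure of stability. For diabetic minus normal, 1 of the 18 passed; 2 did in a fit of these groups alone, 0 with 3'/5' covariates, 3 without the arrays of high Gapdh ratio, 0 without diabetic replicates 1 and 3 (chosen after seeing the data), and 0 to 2 with 1 array left out. The number went from 0 to 1 for treated diabetic minus diabetic in a fit of these groups alone, and from 0 to 3 for treated diabetic minus normal without the arrays of high Gapdh ratio.

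Over all tested probe sets, calls for diabetic minus normal (110) were 62 with no filter, 71 with these groups alone, 32 with covariates, 464 without the arrays of high Gapdh ratio, 3 without diabetic replicates 1 and 3, and 24 to 247 with 1 array left out. For treated diabetic minus diabetic (30) they were 19, 11 and 1 with no filter, these groups alone and without diabetic replicates 1 and 3, and 10 to 59 with 1 array left out. Treated diabetic minus normal went from 0 to 359 without the arrays of high Gapdh ratio, and treated normal minus normal (4) ran from 0 to 6. The interaction (10) was 6 with the replicate block and 1 with no filter, quantile normalization, covariates, or either set of arrays left out.

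Deviations of same-numbered arrays of different groups had a median correlation of 0.07 (30 pairs, range -0.28 to 0.62). For arrays of other numbers it was 0.0038 (120 pairs, range -0.495 to 0.407). The labels do not describe the numbers as pairing, so the main fit leaves them out. Whether they mark a shared batch was not tested. With a replicate block, diabetic minus normal called 1 of the 18 (Cebpd M65149_at, adjusted p = 0.0302) and 106 in all.

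Sign changes were of uncalled values. With pseudocount 1, Gadd45a rc_AI070295_at was -0.21 in treated normal minus normal; with pseudocount 64, Sgk1 was -0.0012 there. Quantile normalization gave -0.11 for both there, and -0.0017 for Cdkn1a L41275cds_s_at in treated diabetic minus normal. Covariates gave 0.0093 for Cebpd rc_AA946292_at in diabetic minus normal and -0.21 in the interaction, -0.12 for Cebpb X60769mRNA_at in treated diabetic minus diabetic, and -0.051 for Sgk1 and -0.0098 for Cebpb S77528cds_s_at in treated normal minus normal. Without the arrays of high Gapdh ratio, Cebpb S77528cds_s_at was -0.21 in diabetic minus normal and -0.89 in treated normal minus normal, Cebpb X60769mRNA_at -0.13 in treated diabetic minus diabetic, Gadd45a L32591mRNA_g_at -0.23 in treated normal minus normal, and in the interaction Cebpd rc_AA946292_at was -0.080 and Gadd45a rc_AI070295_at -0.30. Without diabetic replicates 1 and 3, treated diabetic minus diabetic was 0.047 for Glul M91652complete_seq_at and -0.03 for Gadd45a rc_AI070295_at, whose interaction was -0.095.

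With 1 array left out, treated diabetic minus diabetic ran from -0.13 to 0.13 for Cebpb X60769mRNA_at, -0.15 to 0.93 for Gadd45a rc_AI070295_at and -0.10 to 0.28 for Klf9 D12769_g_at. Treated normal minus normal ran from -0.012 to 0.35 for Glul rc_AI232783_s_at, -0.29 to 0.31 for Sgk1, -0.059 to 1.36 for Cebpb S77528cds_s_at, and for Gadd45a from -0.21 to 0.34 (L32591mRNA_at), -0.17 to 0.39 (L32591mRNA_g_at) and -0.58 to 1.10 (rc_AI070295_at). Treated diabetic minus normal ran from -0.025 to 0.34 for Cebpd rc_AA946292_at and -0.23 to 0.21 for Cdkn1a L41275cds_s_at. The interaction ran from -0.50 to 0.10 for Sgk1, -0.12 to 0.24 for Cebpd rc_AA946292_at and -0.51 to 1.17 for Gadd45a rc_AI070295_at.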
